A study of Mus musculus with 18 samples.

Results

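Collagen chain genes were read on Affymetrix arrays of mouse embryonic fibroblasts (MEFs) as every probe set annotated to a single gene whose symbol has the form Col, a number, the letter a and a number. This rule gave 58 probe sets of 36 genes, out of 22690 probe sets and 12394 genes on the arrays. The RefSeq gene table held 44 symbols of this form, and the 8 without such a probe set were Col6a4, Col6a5, Col6a6, Col8a2, Col23a1, Col24a1, Col27a1 and Col28a1. The members were sorted by structural class into 6 fibrillar genes, 3 beaded filament genes, 6 basement membrane genes, 7 cartilage genes and 14 others. The fibril-forming chains of cartilage, Col2a1, Col11a1 and Col11a2, were counted with the cartilage genes.

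The arrays compared cells without a working copy of Tdg (Tdg-/-) with cells that kept 1 copy (Tdg+/-). Tdg encodes thymine DNA glycosylase, an enzyme of base excision repair that acts on mismatched thymine and on oxidised methylcytosine. Each genotype was hybridised to 3 arrays. Both groups were immortalised with SV40 and grown in DMEM with 10% fetal calf serum. The Tdg-/- cells were a single clone, clone 9, and the Tdg+/- cells another, clone 4, so genotype and clone cannot be told apart. The labels do not state whether the arrays of a genotype were separate cultures, and the p-values cover the spread between these arrays alone, which could be technical. The series holds 18 samples in all, and its embryonic stem and neuronal precursor samples were not analysed here.

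Collagens are the structural proteins of the extracellular matrix, each a helix of intertwined chains, which come from a single gene in some types and from several genes in others. Fibroblasts are a main source of the fibrillar types I, III and V, which assemble into banded fibrils, and of type VI, which forms beaded microfilaments around cells. Type IV chains form the network of basement membranes, while types II, IX, X and XI belong to cartilage. Several types combine chains from different genes, for example type I from Col1a1 and Col1a2 and type VI from Col6a1, Col6a2 and Col6a3.

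Values are log2 levels as deposited, and a fold change is the Tdg-/- mean minus the Tdg+/- mean on that scale. A probe set counted as changed when its p-value from limma, adjusted by the Benjamini-Hochberg method over all 22690 probe sets, was under 0.05. A gene was read from its probe set with the highest mean. The 3 probe sets of Tdg, each also annotated to Tdg pseudogenes, were between 3.46-fold and 6.30-fold lower in Tdg-/- cells, with adjusted p-values between 0.000726 and 0.00543; 1 of them had an adjusted p of 0.0524 without Tdg-/- replicate 3. Array medians lay between 7.38 and 7.42. The first Tdg+/- array (Tdg+/- replicate 1) stood apart, with a correlation over all probe sets of 0.962 and 0.953 with the other Tdg+/- arrays. The other Tdg+/- arrays correlated at 0.997 with each other, and the Tdg-/- arrays at 0.996 to 0.998. Tdg+/- replicate 1 was the highest of the 6 arrays in 7744 probe sets overall and the lowest in 9679. Each result below is therefore given with and without it where that mattered. The difference between the 3′ and 5′ control probe sets of actin was -0.03, -0.02 and 0.16 (log2) on the Tdg-/- arrays and -0.12, -0.09 and -0.13 on the Tdg+/- arrays. That of Gapdh overlapped between genotypes, at 0.02, -0.04 and 0.06 on the Tdg-/- arrays and -0.07, -0.11 and 0.11 on the Tdg+/- arrays. The part of these differences in the collagen results was not tested.

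Of 8 fibroblast markers all were measured, and 3 of them, Thy1, Pdgfra and Twist2, fell in Tdg-/- MEFs, 2.26-fold, 2.35-fold and 1.95-fold (adjusted p = 0.00348, 0.00444 and 0.00444). Pdgfrb had the opposite sign, with 1 probe set 1.66-fold higher (adjusted p = 0.0112), a call lost without Tdg+/- replicate 2 or any one Tdg-/- array (0.0548 to 0.110). Its probe set of higher mean, from which the gene was read, was 2.17-fold higher and did not pass (adjusted p = 0.0726; 0.000914 without Tdg+/- replicate 1). The other 4 markers did not pass. Over all genes 1.19% were lower and 2.15% higher. The summed linear signal of this list was 15608 to 16452 on Tdg-/- arrays and 16706 to 18060 on Tdg+/- arrays. The 95th percentile of 33 olfactory receptor probe sets, at 7.25, served as the low end of the scale, and 7 of the 8 markers in Tdg-/- cells and all 8 in Tdg+/- cells lay above it on every array. Among 4 endothelial markers 1 fell, Kdr (1.50-fold, adjusted p = 0.0401), and the summed signal was 476 to 488 on Tdg-/- arrays and 672 to 705 on Tdg+/- arrays. No measured gene of the osteoblast, muscle, epithelial, blood and pluripotent marker lists passed. At an unadjusted p under 0.05 there were 1 osteoblast and 1 muscle gene, where 2722 of all 12394 genes were. Twist2 did not pass without Tdg-/- replicate 2 (adjusted p = 0.0534), nor Kdr on leaving out any array but Tdg+/- replicate 1 (0.0769 to 0.231). The part of these markers in the collagen results was not tested.

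In Tdg-/- MEFs 12 of the 58 collagen probe sets passed the test, 11 of them lower and 1 higher. Over all probe sets 3.02% passed, 1.07% lower and 1.96% higher. Read by gene, 5 collagen genes fell (Col1a2, Col3a1, Col5a1, Col6a1 and Col6a2), 1 rose (Col2a1) and 30 did not pass, where 3.34% of all genes passed, 1.19% lower and 2.15% higher. The shares of collagen genes were 16.7% past the threshold and 13.9% lower. Over all probe sets 444 were higher and 242 lower, a split that became 452 and 381 after quantile normalization. In samples of whole cultures, fewer cells of a type and less RNA per cell cannot be told apart. Since the genes were picked with results of these cells known, their counts are a description.

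The median log2 fold change was -0.26 over the 36 collagen genes and -0.02 over all genes. Of the 58 probe sets, 46 had a negative fold change, against 11958 of 22690 over the whole table. The levels of the genotypes did not overlap in 24 collagen probe sets with every Tdg-/- array lower, where this held for 16.7% of all probe sets. They did not overlap in 7 collagen probe sets with every Tdg-/- array higher, where the share of all probe sets was 20.6%. Without Tdg+/- replicate 1 the collagen median was -0.16 and that of all genes -0.03, and 21 collagen probe sets passed, 16 lower and 5 higher, in a table where 17.9% of all probe sets passed. All 12 probe sets that passed with 6 arrays passed in the same direction without this array. When each of the 6 arrays was left out in turn, 3 of the 12 probe sets passed every time, those of Col2a1 and both of Col6a2. With Tdg+/- replicate 2 or any one Tdg-/- array left out, between 121 and 145 of all probe sets passed, against 686 with all 6 arrays.

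**Figure D1:**
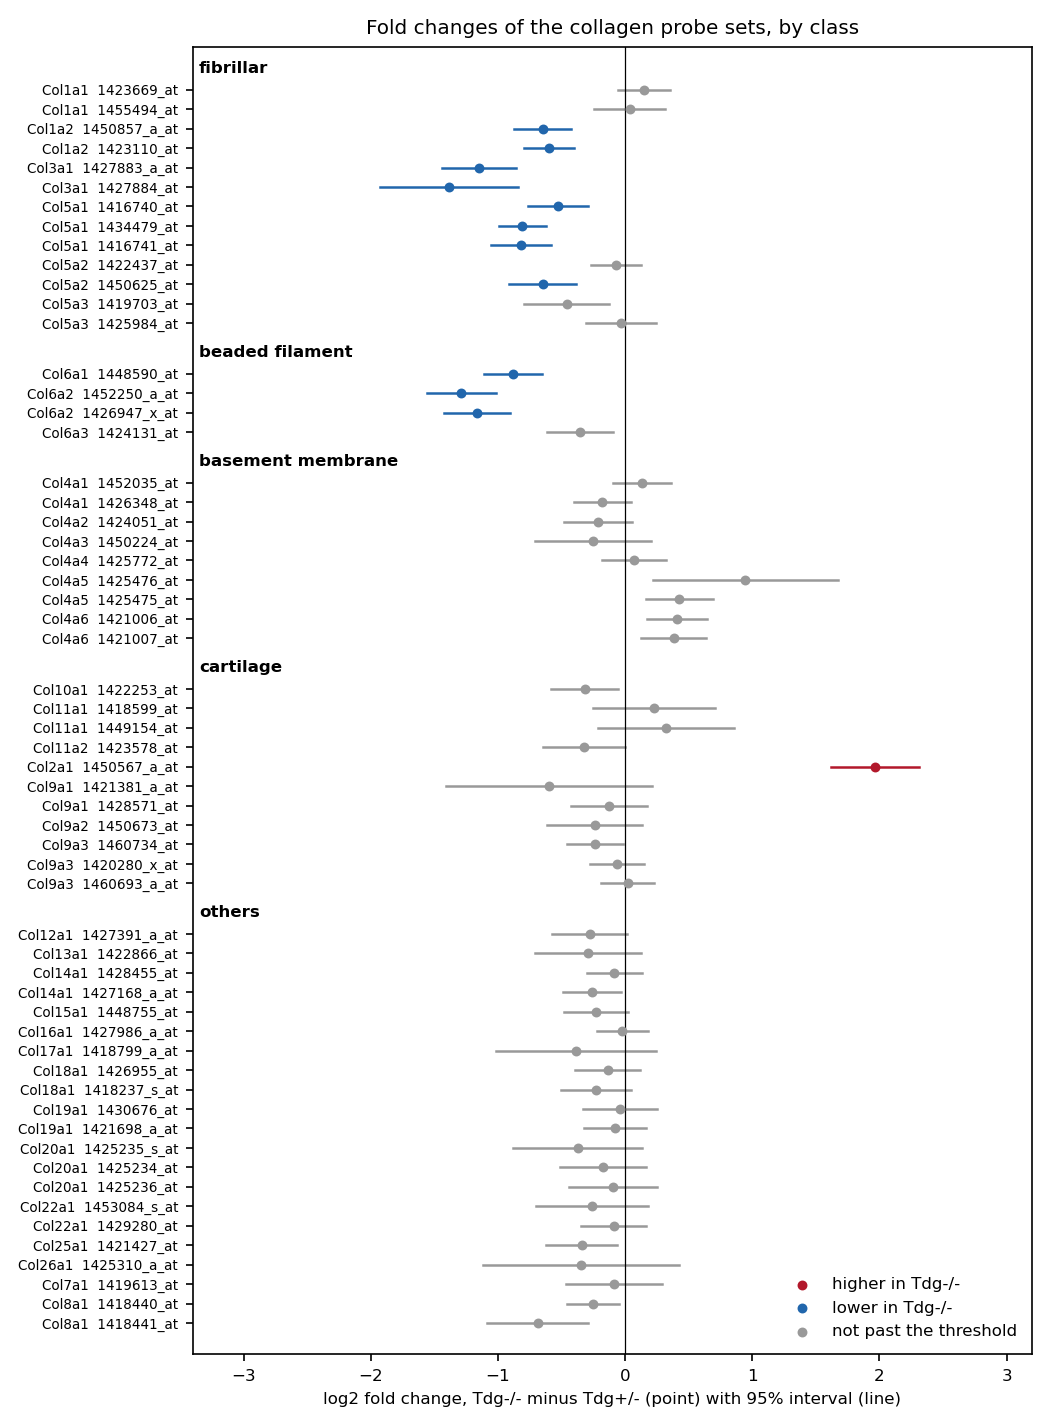
Log2 fold change (Tdg-/- minus Tdg+/-, horizontal axis) of each of the 58 collagen probe sets, by class, with its unadjusted 95% confidence interval as a line. Points coloured as lower lie in the fibrillar and beaded filament classes, between -1.39 and -0.53, and the 1 point coloured as higher is Col2a1 at 1.97.

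The sequences just upstream of the 5 genes that fell are shown. These genes were chosen by that call, so their shared direction follows from the choice. RefSeq promoter entries on GRCm38.p6 were found for 27 of the 36 genes, and the 250 bases before the annotated start are given 5′ to 3′ on the gene's strand. Capitals mark the motifs searched on both strands, the CCAAT box (CCAAT), the GC box (GGGCGG) and the TATA box (TATAAA). The Col1a2 stretch lies at chr6:4505368-4505617 on the plus strand, that of Col3a1 at chr1:45311288-45311537 on the plus strand, and that of Col5a1 at chr2:27886175-27886424 on the plus strand. The Col6a1 stretch lies at chr10:76726045-76726294 and that of Col6a2 at chr10:76623631-76623880, both on the minus strand.
Col1a2: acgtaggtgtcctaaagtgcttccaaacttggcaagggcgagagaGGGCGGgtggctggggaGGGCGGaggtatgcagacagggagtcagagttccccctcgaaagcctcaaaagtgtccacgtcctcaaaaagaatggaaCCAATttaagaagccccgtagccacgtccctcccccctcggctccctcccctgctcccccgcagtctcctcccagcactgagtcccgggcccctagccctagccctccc
Col3a1: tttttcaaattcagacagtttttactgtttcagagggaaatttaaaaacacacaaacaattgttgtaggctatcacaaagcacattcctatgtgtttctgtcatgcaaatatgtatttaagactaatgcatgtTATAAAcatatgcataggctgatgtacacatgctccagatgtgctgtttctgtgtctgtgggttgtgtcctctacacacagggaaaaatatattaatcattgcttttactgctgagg
Col5a1: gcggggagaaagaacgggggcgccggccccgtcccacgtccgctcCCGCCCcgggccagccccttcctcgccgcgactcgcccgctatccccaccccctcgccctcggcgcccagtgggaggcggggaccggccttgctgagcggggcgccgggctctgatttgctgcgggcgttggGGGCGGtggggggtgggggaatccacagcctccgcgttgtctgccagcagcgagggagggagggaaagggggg
Col6a1: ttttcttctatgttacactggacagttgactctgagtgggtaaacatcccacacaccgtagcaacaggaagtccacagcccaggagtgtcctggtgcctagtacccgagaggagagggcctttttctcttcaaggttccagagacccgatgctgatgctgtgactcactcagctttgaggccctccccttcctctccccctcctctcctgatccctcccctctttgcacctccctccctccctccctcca
Col6a2: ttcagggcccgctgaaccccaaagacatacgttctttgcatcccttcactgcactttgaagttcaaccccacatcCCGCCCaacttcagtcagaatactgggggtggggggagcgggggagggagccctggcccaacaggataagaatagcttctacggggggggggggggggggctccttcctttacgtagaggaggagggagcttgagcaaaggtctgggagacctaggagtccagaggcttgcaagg

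These 5 stretches differed widely in base composition. The Col5a1 stretch had 76.4% G and C and 28 CpG dinucleotides, that of Col1a2 62.0% and 11, and that of Col6a2 59.2% and 6. The Col6a1 stretch had 56.0% and 3 CpGs, and that of Col3a1 had 35.2% and 0. The median number of CpGs was 6 over all 27025 promoters and 10 over the 27 collagen promoters. A GC box was present in 3 of the 5 (Col1a2, Col5a1 and Col6a2), in 12 of the other 22 collagen promoters and in 32.7% of all promoters. A CCAAT box was present in 1 of the 5, Col1a2, at 109 bases before the start, in 10 of the other 22 and in 34.5% of all. The TATA letters were present in 1 of the 5, Col3a1, at 117 bases before the start, in 4 of the other 22 and in 13.0% of all. These matches are a description of the letters in this window.

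The fibrillar genes encode the chains of types I, III and V. Of the 6 genes, 3 (Col1a2, Col3a1 and Col5a1) fell in Tdg-/- MEFs and the other 3 did not pass, where 1.19% of all genes were lower. Of their 13 probe sets 8 were lower, where 1.07% of all probe sets were. Their median log2 fold change was -0.49.

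Col3a1, whose product forms the type III fibrils of soft tissue, had levels of 11.29, 11.51 and 11.14 on the Tdg-/- arrays and 12.42, 12.58 and 12.38 on the Tdg+/- arrays. Every Tdg-/- array was lower, by more than the spread within either genotype. The mean was 11.31 ± 0.18 in Tdg-/- and 12.46 ± 0.10 in Tdg+/- cells (log2, SD, n = 3), a fall of 2.21-fold (log2 fold change -1.15 ± 0.12, SE; limma adjusted p = 0.00706). The other Col3a1 probe set had 7.81, 7.78 and 7.60 on the Tdg-/- arrays against 8.59, 9.43 and 9.33 on the Tdg+/- arrays, with Tdg+/- replicate 1 the lowest of its group. It fell 2.61-fold (adjusted p = 0.0311). The first of these calls was lost without Tdg+/- replicate 2 (adjusted p = 0.0548), Tdg-/- replicate 1 (0.0613) or Tdg-/- replicate 3 (0.0518). The second was lost on leaving out any array but Tdg+/- replicate 1, with adjusted p-values of 0.0674 to 0.182.

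Type I collagen, the most common collagen of connective tissue, is made of chains from Col1a1 and Col1a2. Col1a2 measured 12.60, 12.51 and 12.37 on the Tdg-/- arrays and 13.18, 13.15 and 13.10 on the Tdg+/- arrays. The genotypes did not overlap, and the gene fell 1.57-fold (12.50 ± 0.12 in Tdg-/- against 13.14 ± 0.04 in Tdg+/- cells, SD, n = 3; log2 fold change -0.65 ± 0.09, SE; limma adjusted p = 0.0209). Its other probe set gave 11.39, 11.46 and 11.36 in Tdg-/- and 11.98, 12.06 and 11.95 in Tdg+/- cells, 1.51-fold lower (adjusted p = 0.0180). Both Col1a2 calls were lost without Tdg+/- replicate 2 or any one Tdg-/- array, with adjusted p-values of 0.0897 to 0.149.

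Col1a1 measured 12.98, 13.07 and 12.90 on the Tdg-/- arrays and 12.83, 12.84 and 12.84 on the Tdg+/- arrays. These values did not overlap, with the Tdg-/- arrays higher, but the difference did not pass (log2 fold change 0.15, 95% interval -0.05 to 0.36; adjusted p = 0.325). In its other probe set the genotypes overlapped, at 10.94, 11.06 and 10.99 in Tdg-/- and 10.75, 11.08 and 11.05 in Tdg+/- cells (log2 fold change 0.03, adjusted p = 0.848), and the sign of this difference changed with the normalization.

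Type V collagen sits inside type I fibrils and limits their width. Col5a1 measured 11.01, 11.01 and 10.78 on the Tdg-/- arrays and 11.40, 11.45 and 11.52 on the Tdg+/- arrays. All Tdg-/- values were lower, and the fall was 1.44-fold (log2 fold change -0.53 ± 0.10, SE; adjusted p = 0.0474). A second Col5a1 probe set gave 10.09, 10.05 and 10.04 in Tdg-/- and 10.83, 10.90 and 10.87 in Tdg+/- cells (1.75-fold lower, adjusted p = 0.00511). The remaining one gave 9.56, 9.55 and 9.57 in Tdg-/- and 10.30, 10.55 and 10.29 in Tdg+/- cells (1.76-fold lower, adjusted p = 0.0112). So the 3 probe sets shared a direction and passed, with the probe set of highest mean showing the smallest fall. That probe set did not pass without any one array other than Tdg+/- replicate 1 (adjusted p = 0.0837 to 0.218). The second lost its call without any one Tdg-/- array (0.0503 to 0.0621), and the remaining one without Tdg+/- replicate 2 or any one Tdg-/- array (0.0551 to 0.103).

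The probe sets of Col5a2, the partner chain of Col5a1, disagreed. That with the higher mean had 12.27, 12.30 and 12.26 in Tdg-/- and 12.27, 12.41 and 12.35 in Tdg+/- cells, which overlapped (log2 fold change -0.07, 95% interval -0.27 to 0.13; adjusted p = 0.569). The other had 9.36, 9.45 and 9.43 in Tdg-/- and 9.89, 10.05 and 10.23 in Tdg+/- cells and was 1.57-fold lower (adjusted p = 0.0349). This second call was lost on leaving out any array but Tdg+/- replicate 1 (adjusted p = 0.0598 to 0.189). It was the 1 gene, among 19 collagen genes with several probe sets, whose probe sets gave different calls. Col5a3 had 7.85, 8.18 and 7.86 in Tdg-/- and 8.25, 8.60 and 8.42 in Tdg+/- cells and did not pass (log2 fold change -0.46, adjusted p = 0.149), but did without Tdg+/- replicate 1 (adjusted p = 0.00586). Its other probe set lay near the low end of the scale, at 5.53 ± 0.14 in Tdg-/- and 5.57 ± 0.14 in Tdg+/- cells (SD, n = 3; adjusted p = 0.855).

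**Figure D2:**
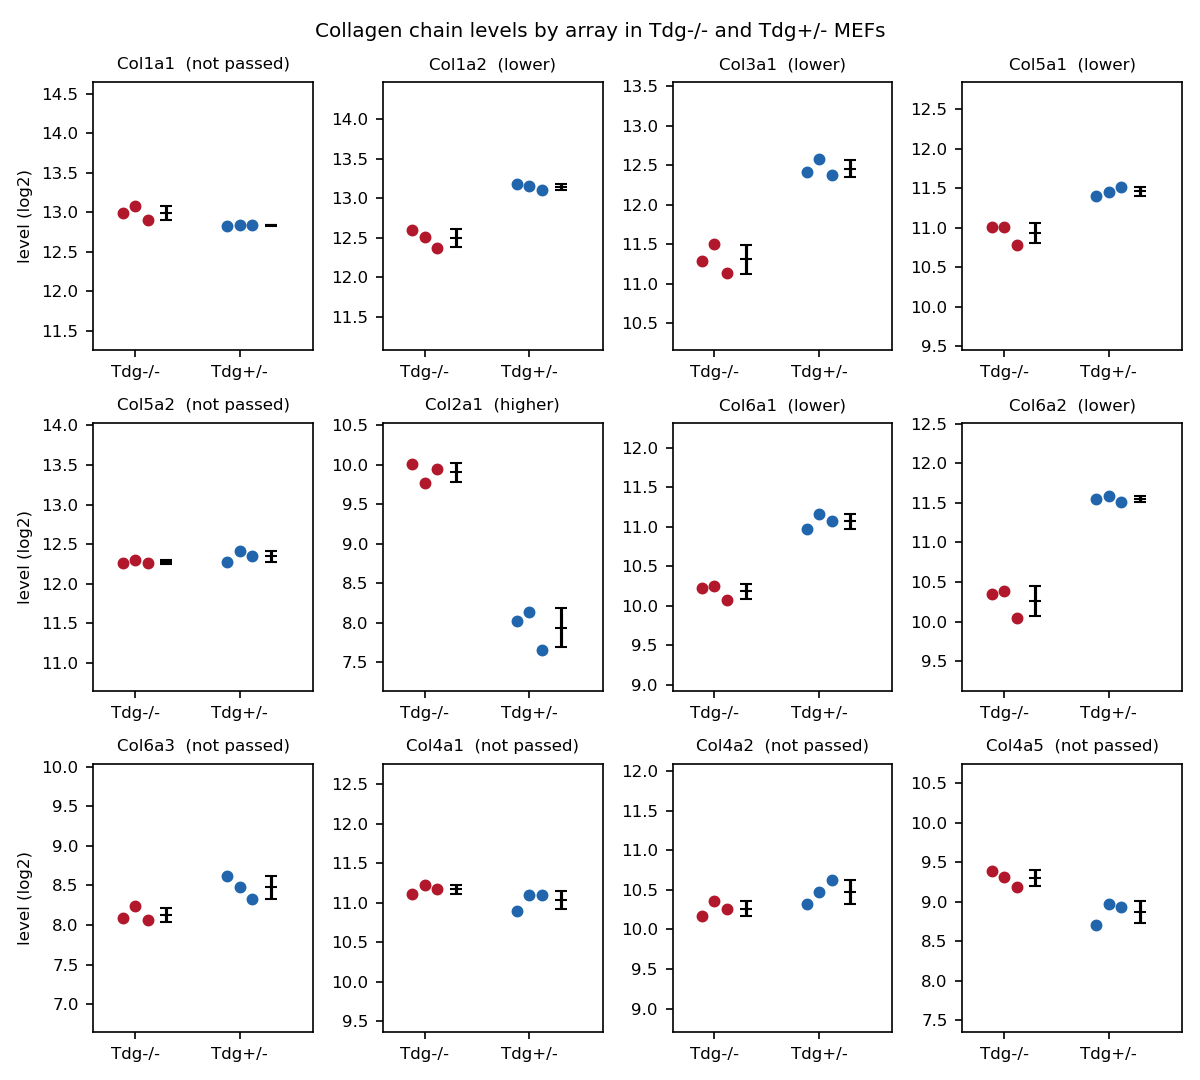
Log2 level (vertical axis) of 12 collagen genes on each array, Tdg-/- at the left and Tdg+/- at the right of every panel, with the mean and SD of 3 arrays as a bar beside the points. All panels span the same number of log2 units, and each title gives the outcome of the test. The separation of genotypes is widest for Col2a1, at 9.91 in Tdg-/- against 7.94 in Tdg+/- cells.

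The beaded filament genes encode type VI collagen, which links cells to the surrounding matrix. Of 3 genes, 2 fell in Tdg-/- MEFs (Col6a1 and Col6a2) and Col6a3 did not pass, where 1.19% of all genes were lower. The median log2 fold change of the 3 type VI genes was -0.88.

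Col6a2 had levels of 10.35, 10.39 and 10.05 on the Tdg-/- arrays and 11.55, 11.59 and 11.51 on the Tdg+/- arrays. The genotypes lay more than a log2 unit apart, several times the spread within either. The mean was 10.26 ± 0.19 in Tdg-/- and 11.55 ± 0.04 in Tdg+/- cells (SD, n = 3), a fall of 2.44-fold (log2 fold change -1.29 ± 0.11, SE; limma adjusted p = 0.00388). Its other probe set had 9.77, 9.74 and 9.46 in Tdg-/- and 10.85, 10.80 and 10.82 in Tdg+/- cells and fell 2.24-fold (adjusted p = 0.00454). With any one array left out the adjusted p-values of these probe sets stayed at or under 0.0360 and 0.0418.

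Col6a1 had 10.23, 10.25 and 10.08 on the Tdg-/- arrays and 10.97, 11.16 and 11.07 on the Tdg+/- arrays. It fell 1.84-fold without overlap (10.19 ± 0.09 in Tdg-/- against 11.07 ± 0.09 in Tdg+/- cells, SD, n = 3; log2 fold change -0.88 ± 0.10, SE; limma adjusted p = 0.00747). The call was lost without Tdg+/- replicate 2 or any one Tdg-/- array, at adjusted p-values of 0.0561 to 0.0649. In the RefSeq annotation of mouse chromosome 10, Col6a1 and Col6a2 are neighbours with 0 protein-coding genes between them. On chromosome 1, Col3a1 and Col5a2 are also neighbours, with different outcomes for their probe sets of highest mean.

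Col6a3, which encodes the largest chain of type VI, had 8.09, 8.23 and 8.06 on the Tdg-/- arrays and 8.62, 8.49 and 8.33 on the Tdg+/- arrays. These did not overlap, but the difference did not pass (log2 fold change -0.35, 95% interval -0.61 to -0.09; adjusted p = 0.156). Without Tdg+/- replicate 1, the highest Tdg+/- array, its log2 fold change was -0.28 and it passed (adjusted p = 0.0448).

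The basement membrane genes encode the chains of type IV. None of the 6 genes passed, with adjusted p-values of 0.0943 to 0.659 over their 9 probe sets. At an unadjusted p under 0.05 there were 2 genes, where 2722 of all 12394 genes were. The signs were mixed, with 3 probe sets negative and the rest positive.

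Col4a1 and Col4a2 encode the chains found in nearly all basement membranes and are neighbours on chromosome 8. Col4a1 had 11.11, 11.22 and 11.17 in Tdg-/- and 10.90, 11.10 and 11.10 in Tdg+/- cells (log2 fold change 0.14, adjusted p = 0.380). Its other probe set leaned the other way, at 11.07, 11.00 and 10.84 in Tdg-/- and 11.14, 11.19 and 11.13 in Tdg+/- cells (log2 fold change -0.18, adjusted p = 0.307). The probe sets of this gene thus gave no common direction. Col4a2 had 10.17, 10.36 and 10.26 in Tdg-/- and 10.33, 10.48 and 10.63 in Tdg+/- cells, which overlapped (log2 fold change -0.21, adjusted p = 0.306), and without Tdg+/- replicate 1 it passed as lower (adjusted p = 0.0420). Col4a3 and Col4a4, chains of the kidney and lung networks, lay at the low end of the scale, at 6.71 and 5.69 in Tdg-/- and 6.97 and 5.62 in Tdg+/- cells.

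Col4a5 and Col4a6, neighbours on the X chromosome, had the largest positive fold changes of the class. Col4a5 had 9.39, 9.31 and 9.19 on the Tdg-/- arrays and 8.71, 8.97 and 8.93 on the Tdg+/- arrays (log2 fold change 0.43, 95% interval 0.17 to 0.69; adjusted p = 0.105). Its other probe set had 9.31, 9.29 and 9.54 in Tdg-/- and 7.74, 8.55 and 9.01 in Tdg+/- cells (log2 fold change 0.95 ± 0.30, SE; adjusted p = 0.168). In both, every Tdg-/- array was higher and Tdg+/- replicate 1 was the lowest array. Col4a6 had 8.51, 8.68 and 8.40 in Tdg-/- and 8.10, 8.14 and 8.13 in Tdg+/- cells (log2 fold change 0.41, adjusted p = 0.0943). Its other probe set averaged 7.08 in Tdg-/- and 6.70 in Tdg+/- cells (log2 fold change 0.38, adjusted p = 0.130), and passed after quantile normalization (adjusted p = 0.0401) and cyclic loess (0.0253). Without Tdg+/- replicate 1 all 4 probe sets of Col4a5 and Col4a6 passed as higher, at adjusted p-values of 0.00184 to 0.0142. Without that array 4055 of all probe sets passed, against 686 with it.

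**Figure D3:**
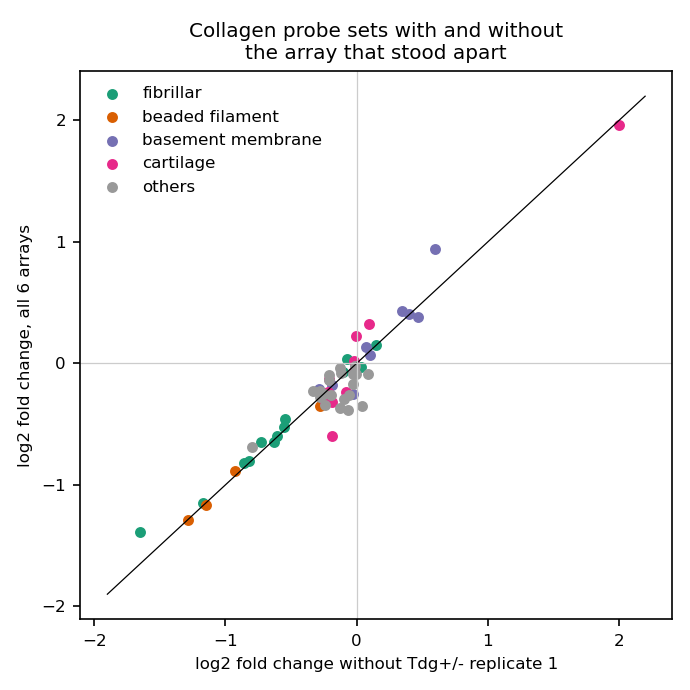
Log2 fold change (Tdg-/- minus Tdg+/-) of the 58 collagen probe sets with all 6 arrays (vertical axis) against the same without Tdg+/- replicate 1 (horizontal axis), coloured by class, with the line of equal values. One Col3a1 probe set lies at -1.39 with all arrays and -1.65 without that one, and Col9a1 at -0.60 and -0.18.

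Among the 7 cartilage genes, 1 rose in Tdg-/- MEFs and 6 did not pass, where 2.15% of all genes were higher. The gene that rose was Col2a1, which encodes the main fibril chain of cartilage. Its levels were 10.01, 9.78 and 9.94 on the Tdg-/- arrays and 8.02, 8.14 and 7.66 on the Tdg+/- arrays. The lowest Tdg-/- array exceeded the highest Tdg+/- array by more than a log2 unit. With means of 9.91 ± 0.12 in Tdg-/- and 7.94 ± 0.25 in Tdg+/- cells (SD, n = 3) Col2a1 rose 3.90-fold (log2 fold change 1.97 ± 0.15, SE; limma adjusted p = 0.00207). It passed with each array left out in turn, the highest adjusted p being 0.0256 without Tdg-/- replicate 3. Col2a1 was read from a single probe set.

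The other 10 cartilage probe sets had adjusted p-values of 0.191 to 0.872 and log2 fold changes of -0.60 to 0.32, and 7 of the 11 in the class lay at the low end of the scale in both genotypes. Col9a1, a chain of the type IX collagen that coats type II fibrils, had 7.29, 7.26 and 7.08 on the Tdg-/- arrays and 8.64, 7.49 and 7.29 on the Tdg+/- arrays. Its log2 fold change of -0.60 became -0.18 without Tdg+/- replicate 1, the array with the highest value. Col11a1, a minor fibril chain of cartilage, had 8.34, 8.55 and 8.43 in Tdg-/- and 7.76, 8.50 and 8.39 in Tdg+/- cells (adjusted p = 0.462), and its log2 fold change of 0.23 became 0.00 without that array. Col10a1, a chain made by hypertrophic chondrocytes, averaged 5.55 in Tdg-/- and 5.87 in Tdg+/- cells. The values of Col9a1, Col11a1 and Col10a1 are named after they were seen.

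Of 6 chondrocyte markers all were measured and none passed. None was at an unadjusted p under 0.05, where 2722 of all 12394 genes were. No chondrocyte marker lay above the olfactory receptor limit on all arrays of either genotype. The summed linear signal of these markers was 587 to 595 on Tdg-/- arrays and 560 to 911 on Tdg+/- arrays. Sox9, the transcription factor that drives Col2a1 in chondrocytes, was at 6.72 ± 0.07 in Tdg-/- and 6.70 ± 0.06 in Tdg+/- cells (SD, n = 3; adjusted p = 0.865). Acan, which encodes the proteoglycan aggrecan, was at 6.69 ± 0.08 in Tdg-/- and 6.59 ± 0.32 in Tdg+/- cells (adjusted p = 0.691).

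The 14 other genes include the fibril-associated collagens, the transmembrane collagens, the endostatin-bearing types XV and XVIII, type VII of anchoring fibrils and the short-chain type VIII. None passed, with 3 genes at an unadjusted p under 0.05, where 2722 of all 12394 genes were. All 21 probe sets of this class had a negative fold change, against 11958 of 22690 over the whole table. Those of the class ran from -0.69 to -0.02 on the log2 scale, with adjusted p-values of 0.0943 to 0.872. Tdg+/- replicate 1 was the highest of the 6 arrays in 11 of the 21. Without it the median of these probe sets was -0.12 instead of -0.23, and 19 were negative. In that fit 2 of them passed the threshold, where 17.9% of all probe sets passed.

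Those 2 were second probe sets of Col8a1 and Col18a1. Col8a1, a chain of the short-chain collagen of vessel walls and the eye, had 8.95, 8.75 and 8.42 on the Tdg-/- arrays and 9.18, 9.53 and 9.47 on the Tdg+/- arrays. The genotypes did not overlap (log2 fold change -0.69 ± 0.17, SE; adjusted p = 0.0943), and without Tdg+/- replicate 1 the probe set passed (adjusted p = 0.00180). The probe set of Col8a1 with the higher mean had a log2 fold change of -0.25 (adjusted p = 0.185). Col18a1, whose product yields endostatin, had 7.49, 7.58 and 7.60 in Tdg-/- and 7.58, 7.92 and 7.86 in Tdg+/- cells (log2 fold change -0.23, adjusted p = 0.299), and passed without that array (0.0118). Col12a1, which binds the surface of type I fibrils, had 9.43, 9.45 and 9.07 in Tdg-/- and 9.60, 9.60 and 9.59 in Tdg+/- cells (adjusted p = 0.260). Col16a1, another fibril-associated chain, had the fold change closest to 0 of the class, at 8.76 ± 0.07 in Tdg-/- and 8.78 ± 0.01 in Tdg+/- cells (SD, n = 3; adjusted p = 0.872). Of the 21 probe sets 12 lay at the low end of the scale in both genotypes. The genes of this class are named after their values were seen.

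Chains that join in one molecule were then compared within each array, as the difference between their log2 levels. Probe sets differ in brightness, so only the change of such a difference between genotypes can be read. It shows unequal change of the probe sets read, which need not be unequal change of the chains. Probe sets of 1 gene also differed in log2 fold change, at 0.14 and -0.18 for Col4a1 and -0.07 and -0.65 for Col5a2. In 17 of 19 collagen genes with several probe sets, these shared a sign. Col1a1 minus Col1a2 was 0.38, 0.56 and 0.53 on the Tdg-/- arrays and -0.35, -0.31 and -0.27 on the Tdg+/- arrays. The genotypes did not overlap, and the difference shifted by 0.80. Col6a2 minus Col6a3 was 2.27, 2.15 and 1.99 in Tdg-/- and 2.93, 3.10 and 3.18 in Tdg+/- cells, a shift of -0.93. Col6a1 minus Col6a3 shifted by -0.53 (2.06 ± 0.07 in Tdg-/- against 2.59 ± 0.21 in Tdg+/- cells, SD, n = 3).

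Col6a1 minus Col6a2 shifted by 0.40 (-0.08 ± 0.09 in Tdg-/- against -0.48 ± 0.09 in Tdg+/- cells, SD, n = 3). Col5a1 minus Col5a2 shifted by -0.46 (-1.34 ± 0.12 in Tdg-/- against -0.89 ± 0.07 in Tdg+/- cells), read with the Col5a2 probe set that did not pass. Col4a1 minus Col4a2 shifted by 0.35 (0.90 ± 0.04 in Tdg-/- against 0.55 ± 0.08 in Tdg+/- cells), and by 0.19 when all probe sets of each gene were averaged. With the probe sets of highest mean, the genotypes did not overlap in any of the 6 pairs. The type VI pairs share chains and are not independent of each other. Single probe sets did not overlap in 16.7% (Tdg-/- lower) and 20.6% (Tdg-/- higher) of the whole table. An exact two-sided permutation test over the 20 splits of the arrays gave p = 0.1 for each pair, also 0.1 after adjustment over the 6 pairs. This is the smallest p that 3 arrays against 3 allow, so no pair could pass 0.05. No pair changed sign under quantile normalization, averaging of probe sets or leaving out any one array. The sign for Col5a1 minus Col5a2 does depend on the probe set. The Col5a2 probe set that passed had a log2 fold change of -0.65, a larger fall than the -0.53 of the Col5a1 probe set read. The shift for Col4a1 minus Col4a2 also depends on the probe set. The Col4a1 probe set not read had a log2 fold change of -0.18, near the -0.21 of Col4a2.

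**Figure D4:**
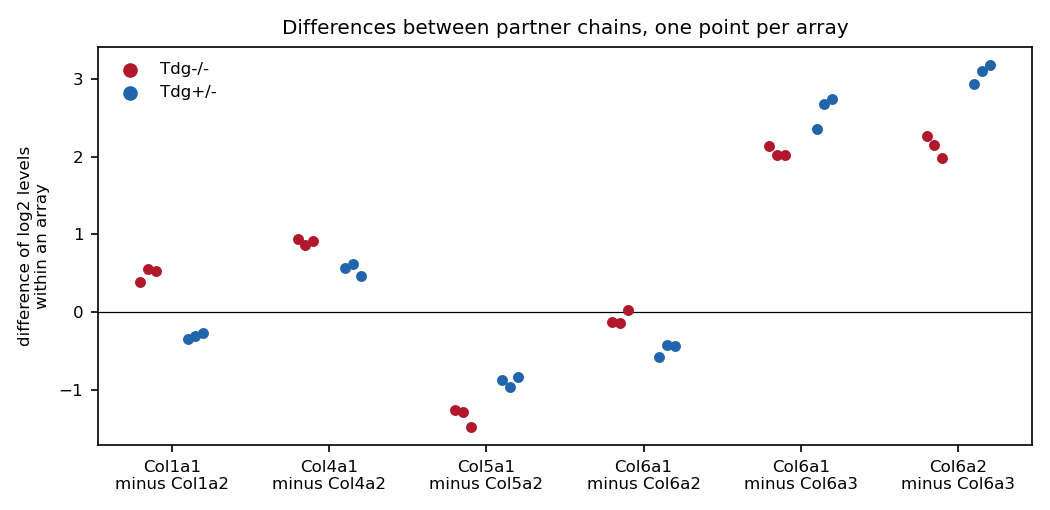
Difference of log2 levels between 2 chains of one collagen molecule within each array (vertical axis), 1 point per array, Tdg-/- left of Tdg+/- for each of 6 pairs. For Col1a1 minus Col1a2 the Tdg-/- points lie above the Tdg+/- points by 0.80 on average, and the position of a pair against 0 depends on the brightness of its probe sets.

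Collagen chains are hydroxylated, folded and glycosylated in the endoplasmic reticulum, then trimmed and crosslinked outside the cell. Of 36 listed genes of these steps 27 were measured, of which 2 fell in Tdg-/- MEFs, 0 rose and 25 did not pass, where 3.34% of all genes passed; the median log2 fold change was 0.07. Lox, the lysyl oxidase that starts crosslinking of fibrils, had 12.02, 12.03 and 11.72 on the Tdg-/- arrays and 12.61, 12.58 and 12.63 on the Tdg+/- arrays. It fell 1.60-fold without overlap (limma adjusted p = 0.0300), with 1 of its 3 probe sets differing in sign and call. Crtap, a cofactor of proline 3-hydroxylation of collagen, had 10.60, 10.53 and 10.47 in Tdg-/- and 11.01, 10.98 and 11.04 in Tdg+/- cells and fell 1.39-fold (adjusted p = 0.0354). Both calls were lost on leaving out any array but Tdg+/- replicate 1, with adjusted p-values of 0.0655 to 0.135 for Lox and 0.0698 to 0.226 for Crtap. In this list 4 genes passed after quantile normalization, where 3.67% of all probe sets did. There were 11 without Tdg+/- replicate 1, 7 lower and 4 higher, where 17.9% of all probe sets passed.

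The proteins that bind collagen fibrils include the small leucine-rich proteoglycans. Of 14 listed genes, all measured, 2 fell, none rose and 12 did not pass, where 3.34% of all genes passed; the median log2 fold change was -0.28. Aspn, which encodes asporin, had 4.80, 4.85 and 4.84 on the Tdg-/- arrays and 6.65, 7.12 and 7.14 on the Tdg+/- arrays. It fell 4.41-fold (log2 fold change -2.14 ± 0.15, SE; adjusted p = 0.00157), and passed with each array left out, though both means lie under the olfactory receptor limit of 7.25. Dcn, which encodes decorin, a proteoglycan on type I fibrils, had 9.15, 9.08 and 8.94 in Tdg-/- and 9.87, 9.71 and 9.64 in Tdg+/- cells. The genotypes did not overlap, and it fell 1.60-fold (adjusted p = 0.0254), a call lost without Tdg+/- replicate 2 or any one Tdg-/- array (0.106 to 0.164). Without Tdg+/- replicate 1, 6 genes of this list passed, 5 lower and 1 higher, where 17.9% of all probe sets passed.

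None of the 6 measured of 10 listed collagen receptors passed. At an unadjusted p under 0.05 there were 2, where 2722 of all 12394 genes were. The median log2 fold change of the receptors was 0.01. Without Tdg+/- replicate 1, 2 of them passed, 1 higher and 1 lower, where 17.9% of all probe sets passed, and without Tdg+/- replicate 3, 1 passed as lower, where 2.26% did. Among signals and transcription factors that act on collagen genes, 18 of 19 were measured, 1 rose and 17 did not pass, where 3.34% of all genes passed; the median log2 fold change was 0.14. Tgfb1, which encodes a growth factor known to raise collagen synthesis in fibroblasts, had 9.41, 9.44 and 9.61 on the Tdg-/- arrays and 8.80, 8.82 and 8.83 on the Tdg+/- arrays. It rose 1.59-fold without overlap (9.49 ± 0.11 in Tdg-/- against 8.82 ± 0.01 in Tdg+/- cells, SD, n = 3; limma adjusted p = 0.0167). It did not pass after quantile normalization (adjusted p = 0.0553) or cyclic loess (0.0664), where 1 other regulator passed as lower, nor without Tdg+/- replicate 2 or any one Tdg-/- array (0.0897 to 0.118). In the fit without Tdg+/- replicate 1, 6 regulators passed, 4 higher and 2 lower, beside 17.9% of all probe sets.

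**Figure D5:**
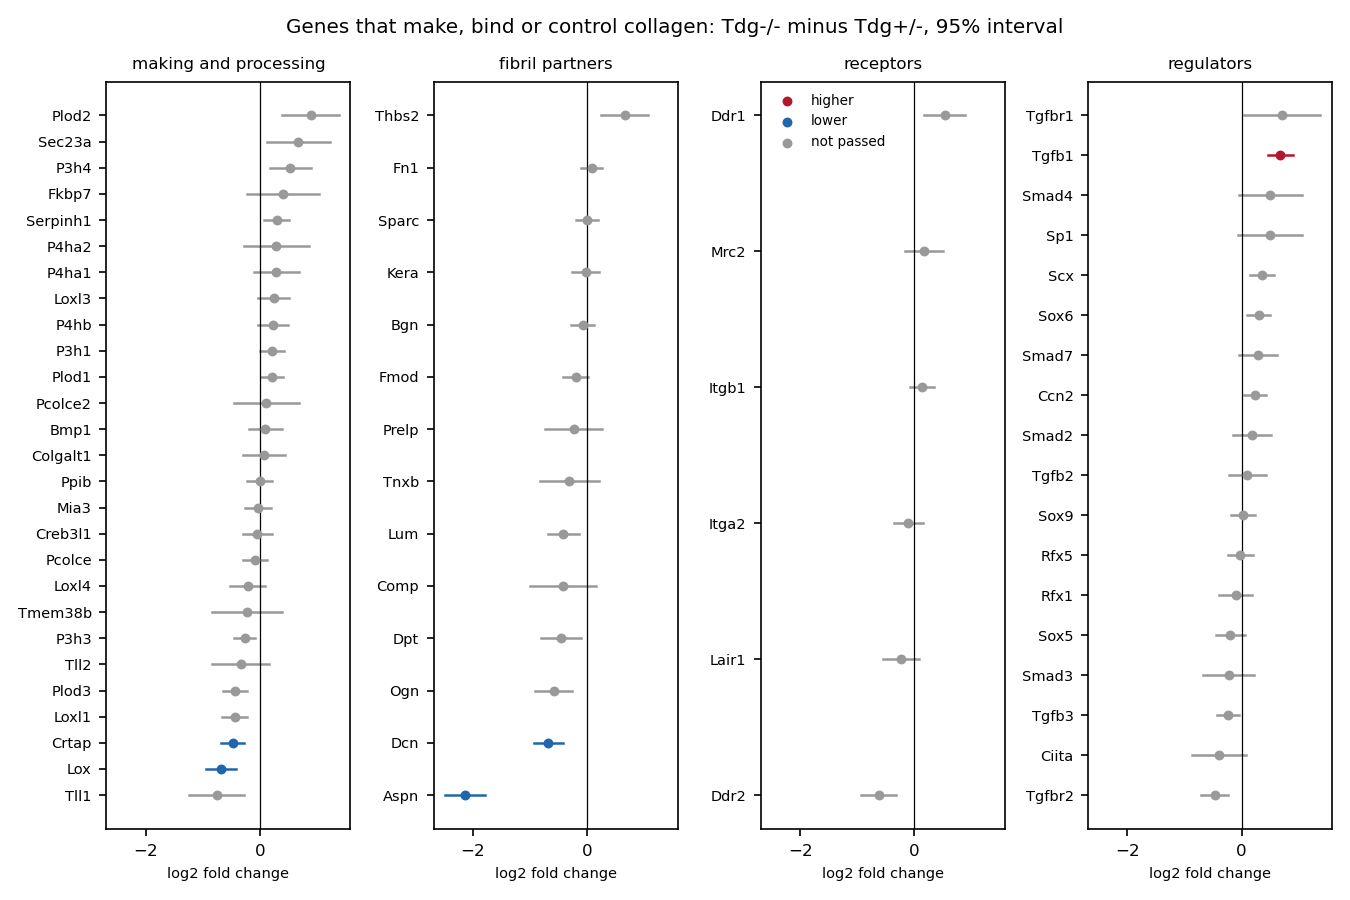
Log2 fold change (Tdg-/- minus Tdg+/-, horizontal axis) of the measured genes that make and process collagen, bind its fibrils, act as its receptors or control its genes, with unadjusted 95% confidence intervals as lines. Lox, Crtap, Dcn and Aspn are coloured as lower, the last with both means under the olfactory receptor limit of 7.25, and Tgfb1 is the 1 gene coloured as higher.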

How the data were processed

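Expression was measured on 6 Affymetrix arrays of MEFs, 3 per genotype, from 13 µg of total RNA per the labels' protocols. The authors deposited log2 values, used as deposited. Per the submitters' processing notes, MAS5, RMA, affy and limma were used, and no source used here says which gave the values. Of 22690 probe sets, 20393 had 1 gene symbol in the platform annotation, 691 had several and 1606 had none, and 20364 were found in RefSeq (GRCm38.p6). No probe set was filtered.

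All probe sets were fitted with limma 3.58.1 (lmFit and eBayes, 2 groups) in R 4.3.3, with Benjamini-Hochberg adjustment and a threshold of 0.05, and the fit was tested on simulated data. The members and the gene lists were chosen with earlier results of these data known. Genes were named if a collagen probe set passed, if fibrillar, basement membrane or beaded filament collagens, and for other lists up to 4 genes that passed; Pdgfrb, Sox9, Acan and the cartilage and other collagens that did not pass were named after their values were seen. Replicate numbers were not treated as pairs. Alternatives were quantile and cyclic loess normalization, a filter on dim probe sets, 1 probe set per gene, a variance trend, a replicate block, a limit of at least 2-fold and omission of 1 array at a time. Precision is limited by the number of arrays. No 2 arrays were identical.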

Additional observations from a re-analysis of the deposited data

How the results depend on the processing

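Counts of genes past the threshold moved most with the arrays used. With all 6 arrays 12 collagen probe sets and 6 collagen genes passed; with each array left out in turn there were 3 to 21 probe sets and 2 to 11 genes, and for a change of at least 2-fold 5 and 3. Fibrillar genes ranged from 0 to 4 on leaving out arrays and numbered 1 at the 2-fold limit, where 3 passed. Beaded filament genes ranged from 1 to 3 (2-fold: 1), against 2, and basement membrane genes from 0 to 3, against 0. Cartilage stayed at 1 and the other collagens at 0 under every setting run. The median log2 fold change of collagen genes ranged from -0.33 to -0.16 on leaving out arrays, against -0.26. The highest counts came without Tdg+/- replicate 1.

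Whether the replicate numbers pair the arrays was not settled. Same-numbered arrays of the genotypes had correlations of deviations from their group mean of 0.302, 0.0451 and 0.272. The other combinations had -0.359 to 0.111. With a replicate block 6 collagen probe sets, 4 collagen genes, 1 fibrillar, 0 biosynthesis, 1 fibril partner, 0 regulator genes and 289 of all probe sets passed.

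Biosynthesis genes, 2 in the report, numbered 4 after quantile normalization, 5 after cyclic loess, 4 with dim probe sets left out, 4 with a variance trend, 0 at the 2-fold limit and 0 to 11 on leaving out arrays. Fibril partners, 2 in the report, numbered 1 at the 2-fold limit and 1 to 6 on leaving out arrays. Receptors, 0 in the report, numbered 1 with dim probe sets left out and 0 to 2 on leaving out arrays. Regulators, 1 in the report, numbered 2 with dim probe sets left out, 3 with a variance trend, 0 at the 2-fold limit and 0 to 6 on leaving out arrays. All probe sets past the threshold numbered 686, but 1054 after cyclic loess, 249 at the 2-fold limit and 121 to 4055 on leaving out arrays.

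On leaving out arrays, 10 of the 58 collagen probe sets changed sign (6 of the others class, 2 cartilage, 2 fibrillar), none of which passed with 6 arrays or in any such fit. Among the fibrillar, beaded filament and basement membrane probe sets and those that passed, signs turned as follows. The probe set of Col1a1 with the lower mean had log2 fold changes of -0.11 after quantile normalization, -0.11 after cyclic loess and -0.072 without Tdg+/- replicate 1. Col4a1 had -0.0094 after cyclic loess. The lower probe set of Col5a3 had 0.087 after quantile normalization, 0.10 after cyclic loess, and 0.032, 0.0074 and 0.0047 without Tdg+/- replicate 1, Tdg-/- replicate 2 and Tdg-/- replicate 3. With dim probe sets left out, a filter that removes low genes, the median over all genes was 0.13. The cause of these changes was not tested. The values carry no detection call. Changes of probe sets under 7.25 may be understated, which was not tested.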
